A study of Mus musculus with 9 samples.

Results

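The change common to tryptophan and IPA supplementation in the mouse hippocampus was examined by pooling both supplemented groups and comparing them with high-fat diet alone. All 9 libraries of the study entered: 6 supplemented libraries (IPA 1 to 3 and Trp 1 to 3) against 3 high-fat-diet libraries (HFD 1 to 3). The members were chosen by their labels alone. All groups ate the same high-fat base diet for 12 weeks. In the Trp group that diet carried 0.5% tryptophan by weight, and in the IPA group mice were given IPA in saline by daily gavage at 100 mg per kg of body weight. The labels do not expand the abbreviation IPA, do not say whether HFD and Trp mice were also gavaged, and give no strain, sex, age or genotype. The submitters state 3 mice in each group, and no chow-fed group was analysed here. In the deposited table the libraries stand under the codes WTB, HEB and HOB. The sample descriptions pair these codes with HFD, IPA and Trp without explaining them, so every group name below rests on that pairing.

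Tryptophan is an essential amino acid that host enzymes turn into serotonin and kynurenines and gut bacteria turn into indoles, which act on receptors such as AHR. FFAR3, named in the title of the study, is a receptor for short-chain fatty acids. The blood-brain barrier consists of endothelial cells sealed by tight junctions and fitted with transporters, among them MFSD2A, which carries omega-3 lipids and restrains vesicle transport across the endothelium.

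Total counts per library ran from 40621084 to 50938746. Of 54513 genes listed, 18690 passed a filter on low counts and were tested. Levels below are counts relative to the TMM-scaled library size (CPM), differences are log2 fold changes of supplemented minus HFD with their standard error (SE), and "passed" means a Benjamini-Hochberg adjusted p under 0.05 over all genes tested with edgeR's quasi-likelihood test. In bulk tissue, fewer cells of a type and less RNA per cell cannot be told apart.

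Some libraries stood apart from the rest in their markers of other tissues. HFD 3 had the lowest mean level of the striatal neuron list (5.62 log2 CPM, against 6.59 to 7.51 in the other libraries) and the highest of the blood cell list (6.68 log2 CPM). Trp 3 had the lowest choroid plexus level (0.25 log2 CPM, against 1.39 to 4.06). Summed over the list, striatal markers reached 1887 to 6837 CPM across libraries, beside 848 to 987 CPM for markers of the dentate gyrus and CA fields, the parts of the hippocampus itself. Such sums depend on how abundant the genes chosen for each list are, so they do not measure the share of either tissue. The blood cell list separated the groups: its members summed to between 1033 and 2656 CPM across HFD, and 682 to 808 CPM across supplemented libraries. Of 9 tested blood genes, 8 were below 0, and 5 had supplemented levels wholly below HFD, among them Alas2, of heme synthesis, at -2.02 ± 0.39 (adjusted p = 0.0939). Blood content and group therefore cannot be told apart. The plot of marker lists by library shows these levels.

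**Figure D1:**
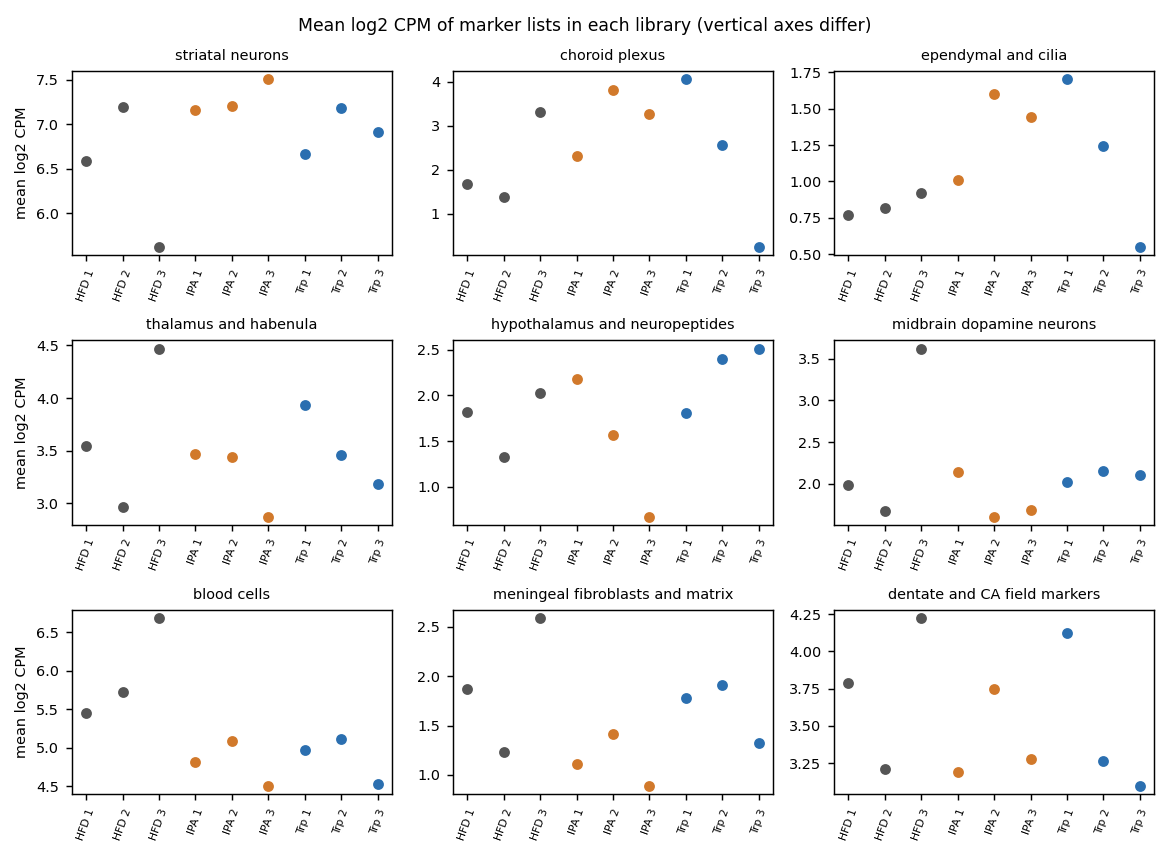
Each panel plots, for 1 marker list, the mean log2 CPM of its tested members (vertical axis, ranges differ between panels) in each of the 9 libraries (horizontal axis). HFD 3 is lowest for striatal neurons and highest for blood cells, and all 3 HFD points lie above all 6 supplemented points for blood cells.

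Pooled supplementation changed few genes past the threshold. In all, 54 genes passed (0.289% of those tested), 23 higher (0.123%) and 31 lower (0.166%) in the supplemented group. The smallest adjusted p was 0.0175. Changes were modest: the median size of the log2 fold change among the 54 was 0.74, 12 genes rose at least 2-fold and 4 fell at least 2-fold. In the same fit, 1194 genes were higher (6.39%) and 1232 lower (6.59%) at an unadjusted p under 0.05, and all 6 supplemented libraries lay above all 3 HFD libraries for 509 genes (2.72%) and below them for 575 (3.08%). Counts of list members below are to be read beside these shares. All 54 passed genes had groups apart in this way, so a lack of overlap adds no support for a passed gene. The count of passed genes rested on single libraries. It was 1 without HFD 1, 207 without HFD 3, 0 without IPA 1, 5 without IPA 2, 25 without IPA 3, 3 without Trp 1 and 5 without Trp 2, beside 57 without HFD 2 and 77 without Trp 3. Without both HFD 3 and Trp 3 it was 760, including all 54. The direction of the 46 passed genes that are not predicted genes or pseudogenes was the same in every alternative fit that tested them (17 to 21 fits per gene, since some filters left genes out), but 0 of the 46 passed in all 9 fits that left out 1 library. Fos, Marcksl1 and Smim3 were tested in 21 alternatives and passed in 19 of them, including 7 of those 9.

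**Figure D2:**
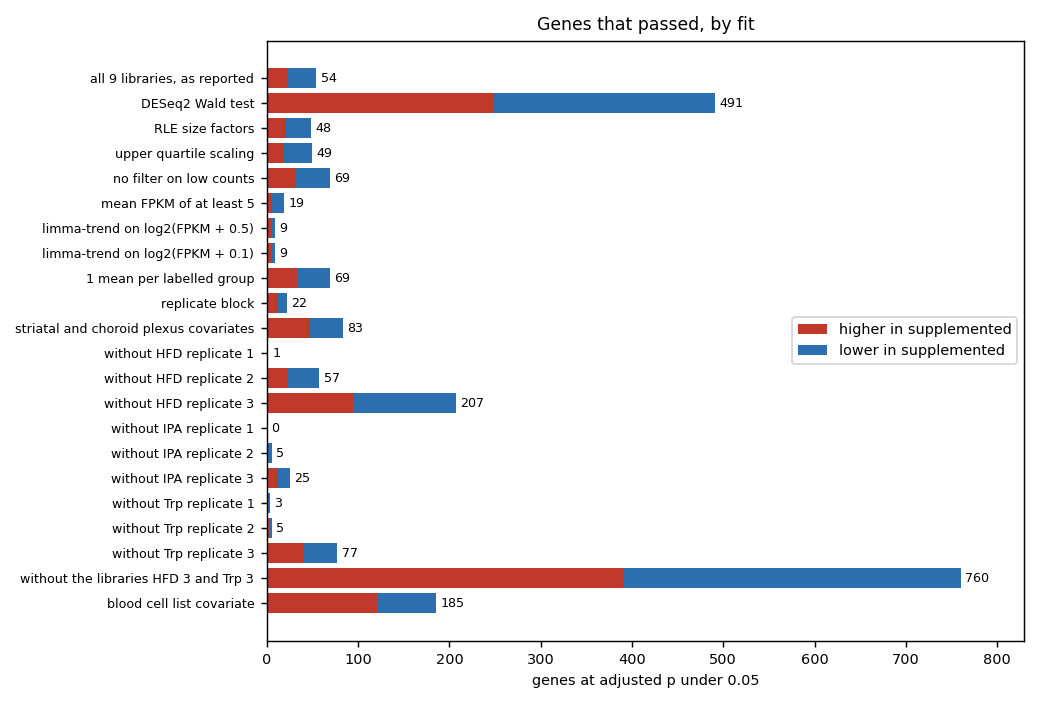
Bars give the number of genes at adjusted p under 0.05 (horizontal axis) in each fit (vertical axis), red for higher and blue for lower in the supplemented group. The count of 54 from all 9 libraries ranges from 0 without IPA 1 to 760 without HFD 3 and Trp 3.

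The immediate early gene Fos, a transcription factor subunit that neurons switch on within minutes of activity, fell furthest among passed annotated genes with a mean FPKM of at least 1. FPKM are the authors' levels per gene length and depth. Fos stood at 33.9, 32.2 and 19.0 CPM in HFD 1 to 3, and its lowest, median and highest supplemented levels were 8.10, 10.1 and 12.4 CPM. The groups did not overlap, and HFD 3 was the lowest of its group. The log2 fold change was -1.49 ± 0.17 (adjusted p = 0.0175). Of the 30 tested immediate early genes, 26 were below 0 with a list median of -0.37, beside 50.2% of all genes below 0 and 49.8% above, with a median of -0.00. Fos alone passed. At an unadjusted p under 0.05, 17 were lower and 1 was higher. Supplemented levels lay wholly below HFD for 2 members and wholly above for 1. The summed level of the list overlapped, at 1337 to 1835 CPM in HFD and 1052 to 1508 CPM with supplement. Junb, a dimer partner of FOS, had 60.2, 54.7 and 28.7 CPM in HFD 1 to 3 and ranged from 21.2 to 32.7 CPM with supplement, so HFD 3 lay inside the supplemented range (-0.89 ± 0.21, adjusted p = 0.135). Jun had groups apart at -0.35 ± 0.09 (adjusted p = 0.126). Inhba, which encodes an activin subunit and is listed with the activity-induced genes, went the other way at 0.73 ± 0.16 (adjusted p = 0.0932).

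The promoter window of Fos, from 250 bases before to 50 after the annotated start in RefSeq on GRCm38.p6, is printed because Fos is a textbook target of the cAMP response element pathway. Capitals mark each TGACG, the core shared by such elements, searched on both strands. The window is chr12:85473640-85473939, plus strand.
Fos: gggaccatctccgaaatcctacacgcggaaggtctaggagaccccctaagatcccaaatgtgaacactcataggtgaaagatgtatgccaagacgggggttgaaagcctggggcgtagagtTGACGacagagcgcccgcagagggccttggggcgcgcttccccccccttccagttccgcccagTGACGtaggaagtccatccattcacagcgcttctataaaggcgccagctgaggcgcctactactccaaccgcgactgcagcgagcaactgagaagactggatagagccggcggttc
TGACG occurred 2 times here, beginning 129 and 66 bases before the start. It was present in windows of 32.6% of 13049 tested genes with a window, in 3 of 13 higher and 3 of 19 lower genes that passed and had one. The full palindrome TGACGTCA was in 0 of those 32 windows and in 3.24% of the 13049 genes.

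Genes of newborn and developing neurons leaned lower in the supplemented group. Of 25 tested genes of the adult neurogenesis list, 3 passed, all lower, 23 were below 0 and the list median was -0.42. Another 6 members had supplemented levels wholly below HFD without passing. Among all genes tested, 0.166% passed lower and 3.08% lay wholly below HFD. Marcksl1, an actin-regulating MARCKS-family protein abundant in growing neurites, stood at 112, 87.1 and 87.7 CPM in HFD 1 to 3, and its supplemented levels had a minimum of 43.5, a median of 50.6 and a maximum of 62.2 CPM. The groups lay well apart, with a log2 fold change of -0.92 ± 0.11 (adjusted p = 0.0175). Dpysl3, a collapsin response mediator of axon growth, was at 55.0, 49.2 and 59.3 CPM in HFD and 34.5 to 41.3 CPM in supplemented libraries, with no overlap (-0.54 ± 0.08, adjusted p = 0.0262). Nes encodes nestin, the intermediate filament of neural progenitors, and was at 10.2, 12.5 and 11.5 CPM in HFD and 5.96 to 8.35 CPM in supplemented libraries. It fell by 0.67 (SE 0.12, adjusted p = 0.0445), and the IPA libraries (7.57 to 8.35 CPM) lay above the Trp libraries (5.96 to 7.15 CPM). Neurog2, a proneural transcription factor, was scarce at 0.545 to 1.26 CPM in HFD and 0.120 to 0.400 CPM in supplemented libraries (-1.84 ± 0.37, adjusted p = 0.0736).

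Nrep and Gprin1, which are not on that list and were picked after their values were seen, fell. Nrep, a protein expressed in regenerating neurons, stood at 108, 93.2 and 115 CPM in HFD and at 51.9 to 77.0 CPM in supplemented libraries, and fell by 0.70 (SE 0.11, adjusted p = 0.0305). Gprin1, an inducer of neurite outgrowth downstream of G proteins, was at 140, 122 and 98.3 CPM in HFD and 72.2 to 87.9 CPM in supplemented libraries (-0.56 ± 0.10, adjusted p = 0.0340). Both were apart between groups. Markers of mature dentate and CA neurons did not pass: 17 of 25 were below 0 with a median of -0.23, 3 lower and 0 higher at an unadjusted p under 0.05, and Prox1, a dentate granule cell factor, had an overlapping range of 10.9 to 42.3 CPM in HFD and 10.3 to 27.9 CPM in supplemented libraries. Without HFD 3 the median of these markers was -0.0089.

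Of the antigen presentation and interferon-stimulated genes, 3 fell past the threshold. MHC class I molecules show peptides to T cells, and in the brain they are also found on neurons and vessels. H2-K1, a classical class I heavy chain, stood at 35.1, 37.2 and 46.7 CPM in HFD 1 to 3, and supplemented libraries had a minimum of 18.6, a median of 22.8 and a maximum of 26.4 CPM. It fell by 0.80 (SE 0.11, adjusted p = 0.0212), with HFD 3 the highest and no overlap. H2-Q4, a class Ib heavy chain, stood at 5.37, 5.30 and 6.36 CPM in HFD and 1.83 to 3.38 CPM in supplemented libraries (-1.31 ± 0.19, adjusted p = 0.0212). H2-D1, the other classical heavy chain, was also apart at 39.8 to 47.7 against 28.6 to 35.2 CPM (-0.43 ± 0.09, adjusted p = 0.0809). Of the 19 tested class I and peptide loading genes, 2 passed, both lower, 15 were below 0, 4 were above 0, and the median was -0.23. At an unadjusted p under 0.05 the list was nearly even, with 5 lower and 4 higher, and its summed level overlapped between groups at 676 to 801 CPM in HFD and 661 to 866 CPM with supplement. Class I genes are near-identical copies of each other, so the split of reads between them is uncertain.

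Gbp3, an interferon-induced GTPase of cell-autonomous defence, was at 6.55, 6.64 and 7.31 CPM in HFD and 2.99 to 4.29 CPM in supplemented libraries, without overlap (-0.90 ± 0.14, adjusted p = 0.0305). It was the only one of 29 tested interferon-stimulated genes to pass. The list leaned one way: 25 were below 0, 13 lower and 0 higher at an unadjusted p under 0.05, 9 had supplemented levels wholly below HFD, and the median was -0.38. Among all genes tested, 6.59% were lower at that p and 3.08% lay wholly below HFD. For members with a mean FPKM of at least 5 the list median was 0.03. Oasl2 (-0.77 ± 0.19), Gbp2 (-0.81 ± 0.20) and Iigp1 (-1.20 ± 0.30), all interferon-induced, had adjusted p of 0.123, 0.128 and 0.128. The blood cell list moved with these genes. With that list's mean level as a covariate, the values were -0.40 for H2-K1, -0.93 for H2-Q4 and -0.78 for Gbp3, and none of these passed. The median of the interferon-stimulated list was -0.12 in that fit. Without HFD 3 they were -0.67, -1.22 and -0.84, and all passed.

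The windows of the passed class I genes and Gbp3 are shown because inducible elements near the start are the known entry point of interferon and cAMP signalling to such genes. Capitals mark TGACG or its complement CGTCA in the class I windows, and in Gbp3 they mark the interferon-stimulated response element, searched as TTTC, any 2 bases, then TTTC on both strands, of which 2 matches overlap. H2-K1 is at chr17:34000298-34000597 on the minus strand (1 of 2 windows listed for the gene), H2-Q4 at chr17:35379367-35379666 on the plus strand, and Gbp3 at chr3:142559794-142560093 on the plus strand (1 of 2 windows), all from RefSeq on GRCm38.p6.
H2-K1: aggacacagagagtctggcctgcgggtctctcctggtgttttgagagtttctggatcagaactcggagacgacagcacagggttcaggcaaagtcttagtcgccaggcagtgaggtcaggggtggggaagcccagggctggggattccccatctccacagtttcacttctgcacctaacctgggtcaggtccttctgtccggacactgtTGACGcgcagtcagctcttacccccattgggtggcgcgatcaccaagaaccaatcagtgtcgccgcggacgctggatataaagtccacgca
H2-Q4: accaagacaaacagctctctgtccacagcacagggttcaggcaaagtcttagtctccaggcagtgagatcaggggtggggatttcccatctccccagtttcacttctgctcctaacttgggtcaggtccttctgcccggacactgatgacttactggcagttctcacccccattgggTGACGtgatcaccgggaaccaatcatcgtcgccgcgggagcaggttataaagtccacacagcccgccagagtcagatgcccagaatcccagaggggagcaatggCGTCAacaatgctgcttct
Gbp3: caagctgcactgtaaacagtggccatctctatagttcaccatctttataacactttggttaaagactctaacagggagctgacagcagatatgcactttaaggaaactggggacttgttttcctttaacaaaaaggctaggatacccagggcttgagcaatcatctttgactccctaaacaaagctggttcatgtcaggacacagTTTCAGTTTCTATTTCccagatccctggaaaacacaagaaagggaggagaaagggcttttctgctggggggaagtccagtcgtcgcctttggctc
The search took only the exact string TTTC, any 2 bases, TTTC. Windows without a match, such as those of H2-K1 and H2-Q4, may hold variants of the element. A match lay in 0 of 13 higher and 2 of 19 lower passed genes with a window. The 2 were Gbp3 and Apol11b, and 3.64% of all tested genes with a window held a match. These matches describe letters in the windows and no binding was measured.

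Wnt ligands are secreted proteins that act through Frizzled receptors and beta-catenin and shape hippocampal synapses, progenitors and brain vessels. Wnt9a stood at 12.2, 12.7 and 10.4 CPM in HFD 1 to 3 and had a supplemented minimum of 6.21, median of 7.14 and maximum of 8.18 CPM (-0.73 ± 0.11, adjusted p = 0.0305). Wnt4 was at 19.1, 20.2 and 16.9 CPM in HFD and 9.84 to 13.9 CPM in supplemented libraries (-0.60 ± 0.11, adjusted p = 0.0462). Wnt7b, a ligand for barrier formation in brain endothelium, was at 38.2, 34.4 and 29.3 CPM in HFD and 21.2 to 26.4 CPM in supplemented libraries (-0.53 ± 0.10, adjusted p = 0.0498). HFD 3 was the lowest HFD library for all 3 ligands, and none overlapped the supplemented range. The intracellular regulators Ctnnbip1, which blocks beta-catenin (-0.50 ± 0.08), and Cxxc5, a feedback inhibitor of Wnt signalling (-0.46 ± 0.08), also fell (adjusted p = 0.0305 for both). The receptor Fzd2 rose from 8.75, 10.3 and 9.97 CPM in HFD to 13.8 to 20.8 CPM in supplemented libraries (0.77 ± 0.13, adjusted p = 0.0305). Over the whole families, which were picked after these values were seen, 12 of 17 tested ligands were below 0 with a median of -0.26, and 6 of 10 Frizzled receptors were below 0 with a median of -0.04. At an unadjusted p under 0.05, 4 ligands were lower and 2 higher, and 2 receptors were lower and 1 higher. The members going the other way included the scarce ligand Wnt8b (1.74 ± 0.47, adjusted p = 0.147) and the scarce receptor Fzd10 (-1.18 ± 0.35, adjusted p = 0.181).

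Adhesion molecules of the immunoglobulin superfamily passed in both directions, 5 named here lower and Kirrel2 higher (1.13 ± 0.19, adjusted p = 0.0310). Nectins join neighbouring cells, including the pre- and postsynaptic sides of hippocampal mossy fibre contacts. Nectin1 was at 33.8, 30.3 and 25.6 CPM in HFD and 19.1 to 23.5 CPM in supplemented libraries (-0.57 ± 0.10, adjusted p = 0.0305). Nectin3 was at 22.9, 18.6 and 24.8 CPM in HFD and 13.2 to 16.5 CPM in supplemented libraries (-0.57 ± 0.10, adjusted p = 0.0440). Neither overlapped between groups. Nectin2 lay just outside the threshold at -0.93 ± 0.18 (adjusted p = 0.0511), with HFD at 5.75 to 6.89 CPM and supplemented libraries at 2.77 to 4.81 CPM. Nectin4 stood at -0.05 ± 0.17 (adjusted p = 0.933). Igsf3 (-0.57 ± 0.11, adjusted p = 0.0490), Mpzl1, a surface glycoprotein related to myelin protein zero (-0.61 ± 0.10, adjusted p = 0.0305), and Cxadr, the junctional receptor of coxsackievirus and adenovirus (-0.53 ± 0.10, adjusted p = 0.0490), were lower as well. This grouping was made after the values were seen.

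**Figure D3:**
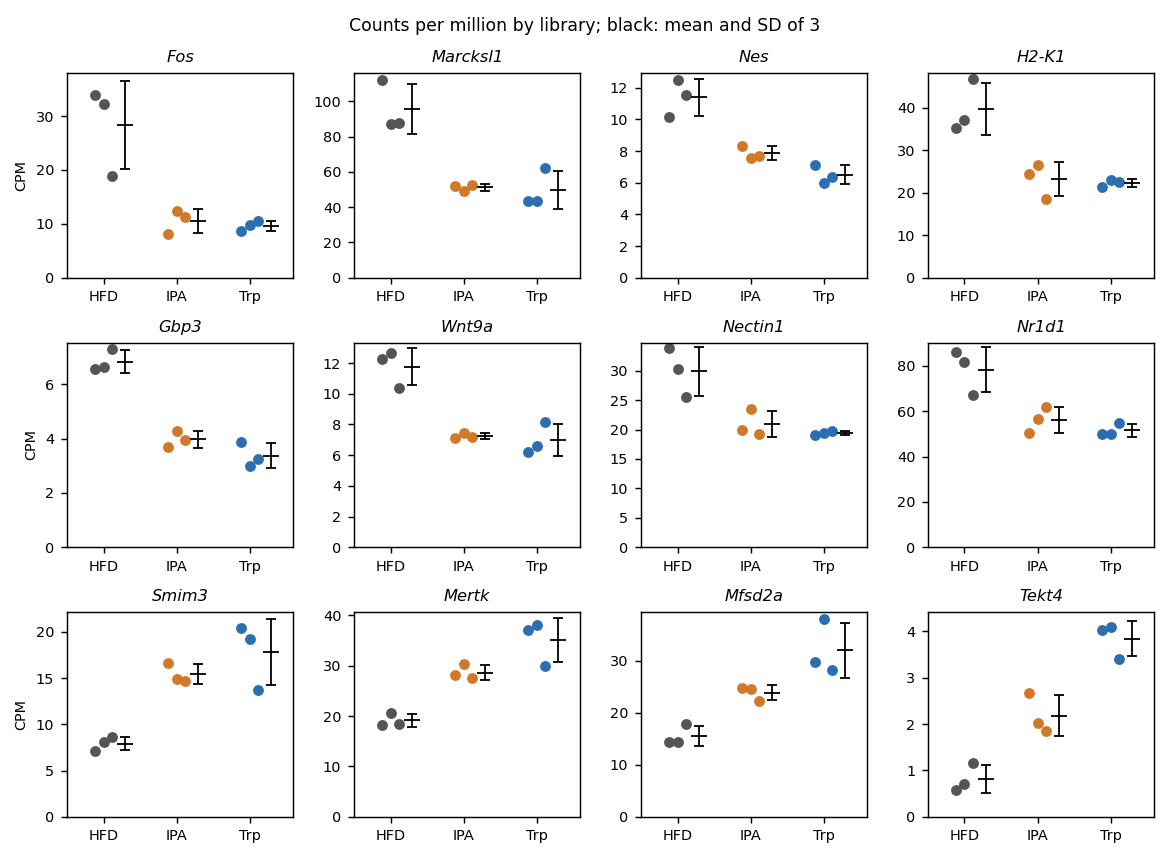
CPM (vertical axes, from 0) of 12 passed genes in each library, by group on the horizontal axes; black marks give the mean and SD of 3 libraries. In every panel the 3 HFD points lie wholly above or wholly below the 6 supplemented points, as for Fos at 19.0 to 33.9 against 8.10 to 12.4 CPM.

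The study's title asks about the blood-brain barrier, and of 22 tested barrier transport genes 1 rose and 1 fell. Mfsd2a was at 14.4, 14.3 and 17.8 CPM in HFD 1 to 3 and had a supplemented minimum of 22.2, median of 26.5 and maximum of 38.1 CPM. It rose by 0.85 (SE 0.16, adjusted p = 0.0462), with no overlap and with every Trp library (28.2 to 38.1 CPM) above every IPA library (22.2 to 24.8 CPM). Slc16a1, the lactate and ketone carrier MCT1, was at 42.1, 43.0 and 68.7 CPM in HFD and 25.6 to 34.7 CPM in supplemented libraries. It fell by 0.77 (SE 0.14, adjusted p = 0.0492), and its highest value, in HFD 3, was in the library richest in blood markers. Without HFD 3 the value was -0.50 and passed, and with the blood list as covariate it was -0.32 and did not pass. Slc16a1 passed in 2 of the 9 fits that left out 1 library. The blood list separates the groups, so the fit with that covariate cannot tell blood content from group. Cav1, of endothelial caveolae (-0.58 ± 0.13, adjusted p = 0.0961), and Slc38a5, an amino acid carrier (-0.92 ± 0.22, adjusted p = 0.126), had groups apart without passing. In the list, 9 genes were above 0 and 13 below, with a median of -0.02. At an unadjusted p under 0.05, 7 were lower and 3 higher, and supplemented levels lay wholly below HFD for 7 and wholly above for 2. Among all genes tested, 0.289% passed, and 6.59% were lower and 6.39% higher at that p. Wholly below HFD lay 3.08% of all genes tested, and wholly above 2.72%.

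The 20 tested tight and adherens junction genes held 0 that passed, 1 higher and 1 lower at an unadjusted p under 0.05, and a median of -0.01. Cldn5, the main claudin of brain endothelium, was at 30.5, 23.7 and 21.2 CPM in HFD and 14.0 to 24.7 CPM in supplemented libraries, which overlapped (-0.46 ± 0.17, adjusted p = 0.284). The 95% confidence interval, which for Cldn5 ran from -0.84 to -0.09, was -0.53 to 0.20 for the junction protein Ocln (-0.17, adjusted p = 0.733) and -0.23 to 0.23 for the scaffold Tjp1 (0.00, adjusted p = 0.998). The sign of Ocln and Tjp1 turned in some alternative fits. Of 26 endothelial and vasoactive genes none passed and 19 were below 0. At an unadjusted p under 0.05, 10 were lower and 1 higher, beside 6.59% and 6.39% of all genes tested. The higher endothelial gene was Edn1, the vasoconstrictor endothelin-1, at 1.31, 1.65 and 1.19 CPM in HFD and 2.17 to 6.20 CPM in supplemented libraries (1.44 ± 0.32, adjusted p = 0.0939). Apold1, an endothelial early response gene, was apart in the other direction (-0.88 ± 0.18, adjusted p = 0.0780).

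Hif3a, a hypoxia-inducible factor subunit that glucocorticoids induce, rose from 1.73, 2.1 and 3.09 CPM in HFD 1 to 3 to a supplemented minimum of 5.28, median of 6.07 and maximum of 9.62 CPM (1.57 ± 0.25, adjusted p = 0.0305). Its mean FPKM was under 1, so it lies outside the rule by which genes were otherwise picked. It was the only passed member of 22 tested glucocorticoid-induced genes, of which 20 were above 0, 14 were higher and 2 lower at an unadjusted p under 0.05, 8 had groups apart and higher, and the median was 0.52. Among all genes tested, 6.39% were higher and 6.59% lower at that p, and 2.72% lay wholly above HFD. Plin4, a lipid droplet coat protein, had the largest change in the list. HFD 1 to 3 held 0.728, 0.887 and 2.63 CPM of it. The IPA libraries held 26.9, 22.5 and 14.5 CPM, and the Trp libraries 54.8, 55.5 and 18.0 CPM. With a log2 fold change of 4.52 ± 0.76 it did not pass (adjusted p = 0.0871), although the groups were far apart. Arrdc2, an arrestin-domain protein (1.16 ± 0.24, adjusted p = 0.0939), and Ddit4, an inhibitor of mTORC1 signalling (0.33 ± 0.09, adjusted p = 0.145), were apart too. Of 23 tested lipid handling genes 0 passed, 5 were higher and 1 lower at an unadjusted p under 0.05, and 15 were above 0 (median 0.07). Pnpla2, which encodes the triglyceride lipase ATGL, was at 16.3 to 18.7 CPM in HFD and 21.4 to 34.2 CPM in supplemented libraries (0.68 ± 0.15, adjusted p = 0.0964).

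The clock repressor Nr1d1, which encodes REV-ERB alpha, fell from 86.0, 81.9 and 67.3 CPM in HFD to a supplemented range of 49.7 to 61.7 CPM (-0.54 ± 0.09, adjusted p = 0.0305). The groups did not overlap, and HFD 3 was nearest to the supplemented libraries. Its exons overlap those of Thra on the other strand, and the strand setting of the counting is not given, so reads of both cannot be told apart. Nr1d1 was the only passed member of 19 clock genes, with 10 above and 9 below 0. Dbp, a clock output factor, was at -0.39 ± 0.11 (adjusted p = 0.169), and the repressor Cry1 was at 0.64 ± 0.18 (adjusted p = 0.174).

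Among genes that rose, Smim3, a small integral membrane protein, had the smallest p. It stood at 7.11, 8.09 and 8.59 CPM in HFD 1 to 3, and its supplemented minimum, median and maximum were 13.7, 15.8 and 20.5 CPM (1.07 ± 0.14, adjusted p = 0.0175). Mertk, a receptor by which astrocytes and microglia engulf synapses and dead cells, was at 18.3, 20.7 and 18.4 CPM in HFD and 27.5 to 38.1 CPM in supplemented libraries (0.74 ± 0.12, adjusted p = 0.0305). Both had groups well apart. Of 25 tested microglia identity genes 0 passed, although 24 were above 0, 14 were higher and 0 lower at an unadjusted p under 0.05, and the median was 0.39. Their summed level was 394 to 442 CPM in HFD, 428 to 444 CPM in IPA and 573 to 747 CPM in Trp. The IPA libraries thus lay close to HFD and only the Trp libraries lay above it, and the difference between Trp and IPA for the list was not tested. P2ry12, the purinergic receptor of resting microglia, was at 0.49 ± 0.17 (adjusted p = 0.251), and Aif1, which encodes IBA1, at 0.31 ± 0.19 (adjusted p = 0.514). Among 16 tested genes of activated microglia, the median was 0.05. Tnf had at most 3 counts in any library and was not tested.

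Secreted and membrane serine proteases were found among the higher genes. Htra1, an extracellular protease abundant in astrocytes, was at 110, 106 and 117 CPM in HFD and 142 to 208 CPM in supplemented libraries (0.59 ± 0.11, adjusted p = 0.0490). Prss23 was at 17.5, 18.6 and 13 CPM in HFD and 23 to 32.9 CPM in supplemented libraries (0.75 ± 0.14, adjusted p = 0.0442). Tmprss6, known as a regulator of iron through hepcidin, was scarce at 0.950 to 1.53 CPM in HFD and 2.36 to 3.91 CPM in supplemented libraries (1.36 ± 0.23, adjusted p = 0.0305). None of these overlapped between groups. The grouping was made after the values were seen.

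Tekt4, a tektin of ciliary microtubules, showed the largest rise among annotated passed genes with a mean FPKM of at least 1. HFD 1 to 3 held 0.578, 0.706 and 1.16 CPM, the IPA libraries 2.68, 2.02 and 1.84 CPM, and the Trp libraries 4.03, 4.09 and 3.40 CPM (1.89 ± 0.32, adjusted p = 0.0305). HFD, IPA and Trp each held their own range. Tppp3, a tubulin polymerization protein, rose from 37.0, 38.4 and 48.1 CPM in HFD to 57.6 to 89.0 CPM in supplemented libraries (0.85 ± 0.14, adjusted p = 0.0305). Tekt4 was the only passed member of 21 ependymal and cilia genes, of which 18 were above 0 (median 0.38). That list's summed level was 47.9 to 57.9 CPM in HFD and 44.1 to 86.6 CPM in supplemented libraries, lowest in Trp 3, and its part in the result was not tested.

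Metabolic enzymes of amino acids were represented by Aass, which begins lysine breakdown, and Ass1, the argininosuccinate synthase of arginine recycling. Aass stood at 2.20, 2.70 and 3.42 CPM in HFD and 4.63 to 6.80 CPM in supplemented libraries (1.00 ± 0.18, adjusted p = 0.0357). Ass1 was at 18.7, 19.7 and 15.6 CPM in HFD and 24.3 to 30.5 CPM in supplemented libraries (0.59 ± 0.10, adjusted p = 0.0305). Its processed copy Gm5424 passed with it at 0.78 ± 0.13 (adjusted p = 0.0305), and reads shared by the copies cannot be assigned to either. Tbc1d4, which gates insulin-driven glucose transporter traffic, rose by 0.56 (SE 0.10, adjusted p = 0.0462), from 9.55 to 12.9 CPM across HFD to 15.3 to 18.0 CPM across supplemented libraries.

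The remaining higher genes of this level were Farp2, a FERM-domain protein (0.89 ± 0.16, adjusted p = 0.0445) and Snw1, a splicing and transcription cofactor (0.37 ± 0.07, adjusted p = 0.0498). Farp2 shares exon positions with Stk25 on the opposite strand, and Snw1 with Slirp. Other genes named here do so too, among them Cxadr (Btg3), Junb (Prdx2), Plin4 (Hdgfl2), Wnt7b (AU022754) and Prss23 (Prss23os). On the same strand, exons of Usp50 overlap Gm10774 and those of Cxxc5 overlap AC141471.2. With the strand setting not given, reads of such pairs may not be told apart. Passed genes with a mean FPKM under 1 included Slc4a11, a membrane transporter, at 24 to 60 counts in HFD and 79 to 170 in supplemented libraries (1.74 ± 0.30). Usp50, of the ubiquitin-specific protease family, had 5, 5 and 10 counts in HFD and 23 to 57 in supplemented libraries (2.76 ± 0.40), and Apol11b, an apolipoprotein L, had 19, 17 and 52 counts in HFD and 0 to 3 in supplemented libraries (-4.02 ± 0.64).

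The remaining lower genes were mostly signalling and cytoskeletal regulators. Ppp1r14c, an inhibitor of protein phosphatase 1, was at 18.1 to 25.1 CPM in HFD and 11 to 14.1 CPM in supplemented libraries (-0.75 ± 0.12, adjusted p = 0.0305). Cdc42ep4, an effector of the GTPase CDC42 found in glia, was at 31.1 to 38.5 against 21.8 to 25.1 CPM (-0.51 ± 0.09, adjusted p = 0.0305), and the kinase Map4k4 at 101 to 122 against 72.2 to 88.8 CPM (-0.47 ± 0.08, adjusted p = 0.0342). Kcnb2, a delayed rectifier potassium channel, fell by 0.53 (SE 0.09, adjusted p = 0.0310), Cpne8, a calcium-dependent lipid-binding copine, by 0.57 (SE 0.10, adjusted p = 0.0305), and the zinc finger gene Zfta by 0.41 (SE 0.08, adjusted p = 0.0498). None of these 6 overlapped between groups.

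Genes of the tryptophan and receptor pathways did not move past the threshold. Of 16 tested tryptophan, serotonin and kynurenine enzymes, 0 passed, 2 were higher and 0 lower at an unadjusted p under 0.05, 8 were above 0 and 8 below, and the median was 0.06. Kyat3, a kynurenine aminotransferase, had groups apart at 4.23 to 5.75 CPM in HFD and 6.43 to 7.73 CPM in supplemented libraries (0.53 ± 0.13, adjusted p = 0.128). Of 16 tested indole, bile and fatty acid receptors and targets, 0 passed, 2 were higher and 0 lower at an unadjusted p under 0.05 and the median was -0.01, while Ffar1, Nr1i2 and Cyp1a2 had 0 counts in every library. Ffar3 had 16, 19 and 0 counts in HFD 1 to 3 and 0 to 12 in supplemented libraries. Its fitted difference of -1.19 ± 0.84 (adjusted p = 0.595, 95% confidence interval -3.01 to 0.64) covers changes in both directions, and no difference was detectable at this depth. Ahr, the indole-sensing transcription factor, was at 8.07 to 8.97 CPM in HFD and 6.75 to 8.39 CPM in supplemented libraries (-0.18 ± 0.11, adjusted p = 0.511). The serotonin receptor Htr2a was at 0.45 ± 0.13 (adjusted p = 0.179). Bdnf, the neurotrophin of hippocampal plasticity, overlapped between groups at 25.1 to 35.3 and 19.2 to 27.2 CPM (-0.26 ± 0.13, adjusted p = 0.404).

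The plot of gene lists sets these groups side by side. Of 774 distinct list genes tested, 12 passed, and they fell in 8 of the 35 lists. Over all 18690 genes tested, 54 passed (0.289%). The lists were chosen with earlier results of these data known, so these counts are no test of the lists.

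**Figure D4:**
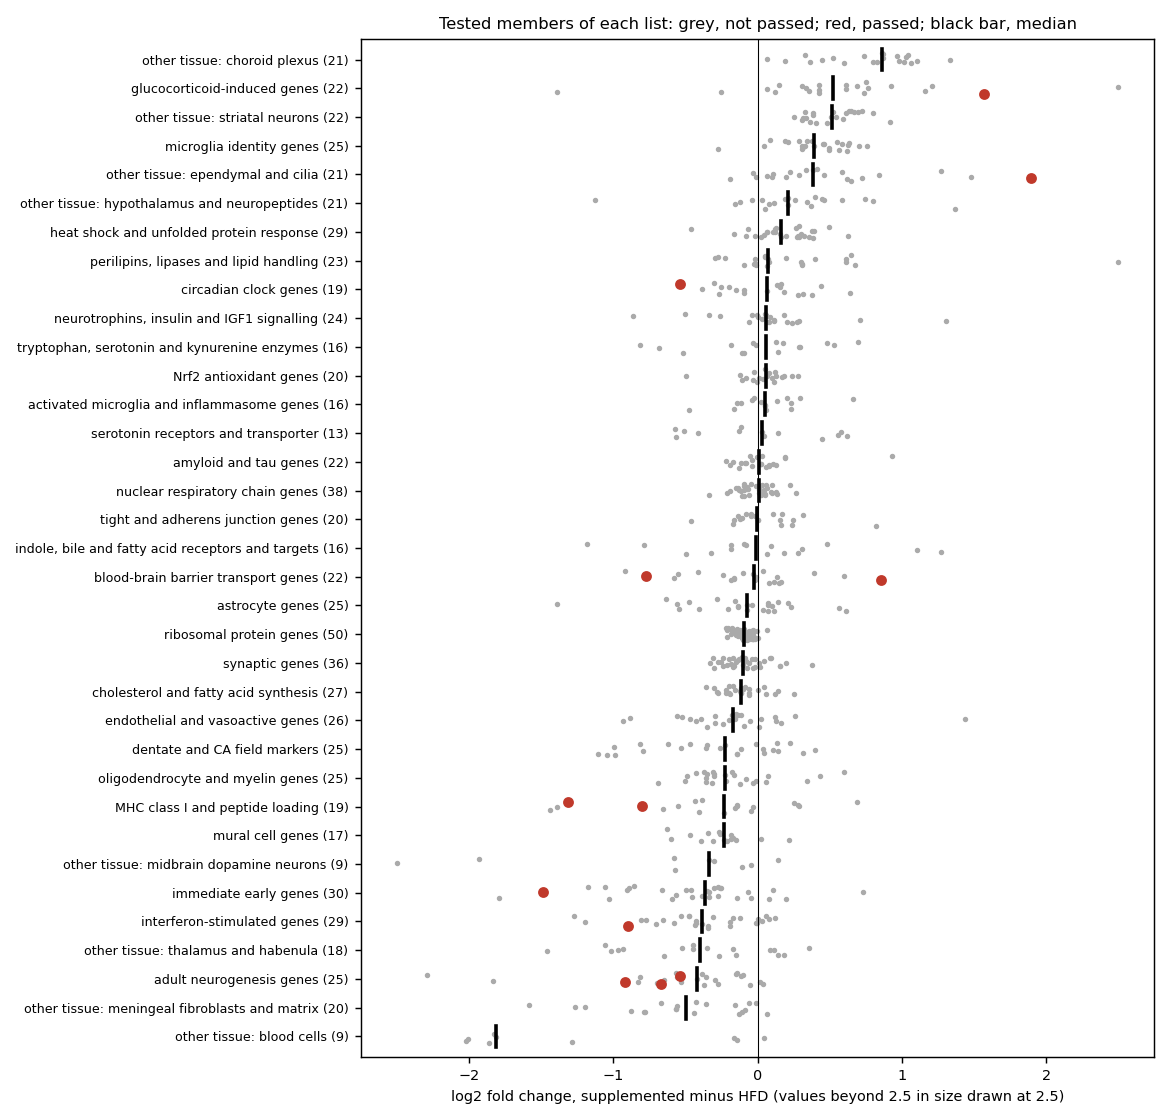
Points are tested members of each gene list (vertical axis, number tested in brackets) by log2 fold change of supplemented minus HFD (horizontal axis); red points passed and black bars are medians. Medians run from -1.82 for blood cells to 0.86 for choroid plexus, and the 12 red points lie in 8 lists.

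Pooling assumes a shared change, so the IPA and Trp changes are given side by side; they share the HFD libraries. All 54 passed genes lay on the same side of HFD in both groups, which their selection in the pool favours. Fos was at -1.42 ± 0.22 in IPA and -1.56 ± 0.22 in Trp, and Marcksl1 at -0.90 ± 0.14 and -0.94 ± 0.14. For both genes the IPA and Trp values differed by less than 1 SE. The Trp change was the larger in size for 43 of the 54, 18 higher and 25 lower, beside 49.6% of all tested genes.

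Trp against IPA, tested directly, gave 0 genes past the threshold (0% of 18690) with edgeR and 840 at an unadjusted p under 0.05 (4.49%); the smallest adjusted p was 0.102. DESeq2 gave 15. Among the 54, 6 had an unadjusted p under 0.05. Mfsd2a was at 0.63 ± 0.13 in IPA and 1.05 ± 0.13 in Trp, a difference of 0.42 ± 0.13, Htra1 at 0.41 ± 0.09 and 0.74 ± 0.09 (difference 0.33 ± 0.09), and Tekt4 at 1.42 ± 0.27 and 2.24 ± 0.27 (difference 0.82 ± 0.25). Mertk was at 0.58 ± 0.11 and 0.87 ± 0.11, and Prss23 at 0.57 ± 0.13 and 0.91 ± 0.13. All 5 had an adjusted p of 0.987 for the difference in edgeR's test. In each the Trp value was the higher, and the sixth was the predicted gene Gm49395.

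**Figure D5:**
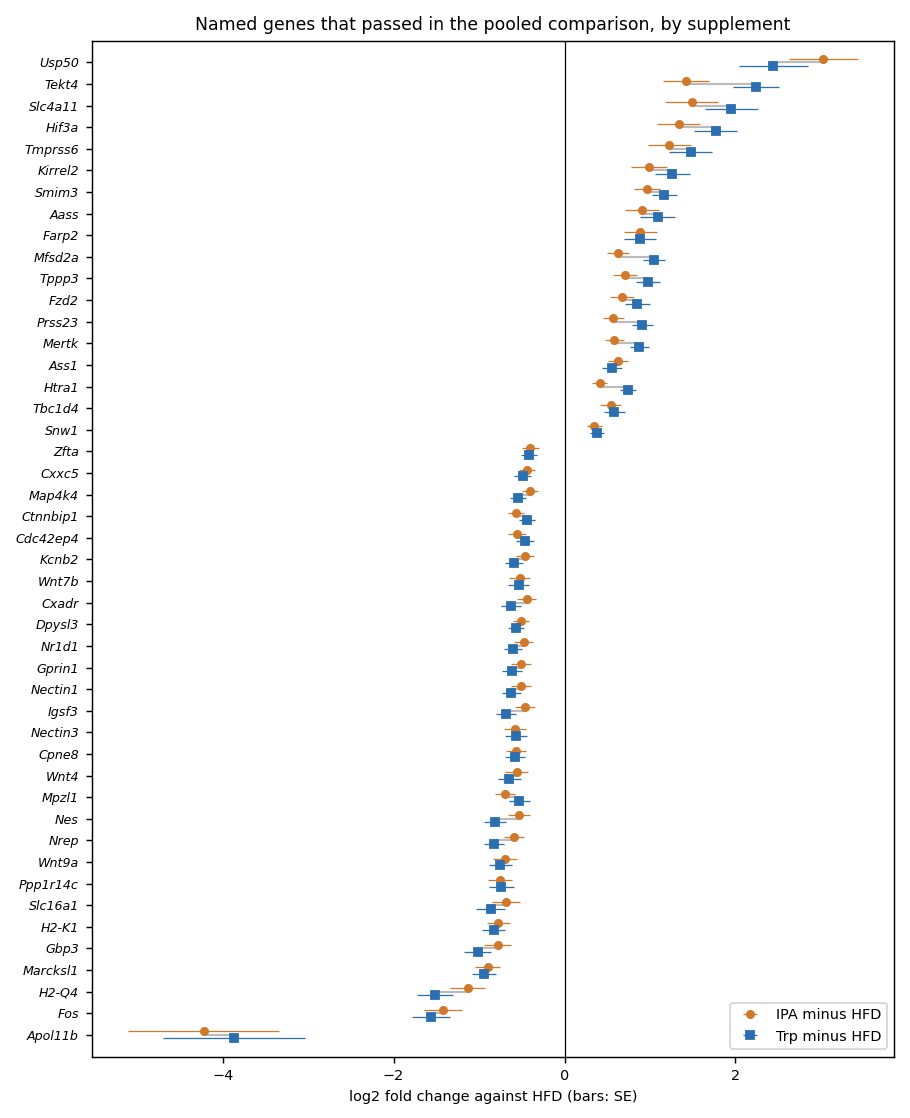
Log2 fold change against HFD with its SE (horizontal axis) in IPA (circles) and Trp (squares) for the 46 passed genes that are not predicted genes or pseudogenes (vertical axis). Every pair lies on 1 side of 0, and Mfsd2a, at 0.63 and 1.05, is among the pairs farthest apart for their errors.

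At the threshold itself, Wnt7b, Snw1, Zfta and Gm42756 were the last inside (adjusted p = 0.0498 for all 4), and Ezr (0.59 ± 0.11, adjusted p = 0.0509), Nectin2, Gm45861 and Ube2l6 (adjusted p = 0.0547 for the last 2) the first outside. Another 79 genes had an adjusted p between 0.05 and 0.1.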

How the data were processed

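Poly(A) RNA libraries of hippocampal tissue were counted by the authors. They deposited 1 table for the series which, per the file headers, holds raw counts and FPKM (fragments relative to gene length and depth) per gene and library. StringTie 2.1.3b and the build mm10 come from the submitters' processing notes. The aligner, counter, annotation and strand setting were not given in the sources used here. The table's coordinates differ from mm10 and are not printed. The authors' own comparison columns were not used, and 0 library columns were left unmapped.

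The counts were fitted with edgeR 4.0.16 under R 4.3.3. After filterByExpr (minimum count 10, pooled groups), libraries were scaled by TMM, and a robust quasi-likelihood model with 1 mean for HFD and 1 for the 6 supplemented libraries gave the main test, two-sided, with Benjamini-Hochberg adjustment over 18690 genes at 0.05. Values for IPA, Trp and their difference came from 1 mean per labelled group. Each SE was derived from the test, as the size of the log2 fold change divided by the square root of its F statistic. Confidence intervals were built from that SE. Log2 CPM of lists used a prior count of 2. The pipeline was tested on simulated data with known fold changes. The simulation held no shifts of tissue or blood content between libraries, so it cannot show how such shifts affect the calls. Alternatives used DESeq2 1.42.0, limma 3.58.1 on log2(FPKM + 0.5), other scalings, filters, covariates and leaving out libraries. Figures used matplotlib 3.10.9. GENCODE M21 gave gene types and exon overlaps, RefSeq the promoters.

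Named were passed genes of mean FPKM 1 or more, groups apart and no predicted or pseudogene status (the 12 with the largest change in each direction and the 10 with the smallest p), up to 4 per list by p, and preset barrier, receptor, glial and activity genes; others are named as chosen after their values were seen, including the rest of the passed genes. The comparison and the 35 gene lists (809 distinct genes) were chosen with earlier results of these data known. CPM are scaled to TMM library sizes. Total counts per library of 40621084 to 50938746 set the precision of scarce genes. Intervals cover the spread between libraries. Replicates differed beyond sampling noise in a chi-square check of their counts.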

Additional observations from a re-analysis of the deposited data

Results flagged for a closer look

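Of 131 sets of 6 supplemented values examined, 4 held a library far from the others, past the 95% critical value of Dixon's test. Chance flags about 1 in 20. H2-Q4 was highest in IPA 2 at 3.38 CPM, beside 1.83 to 2.27 CPM in the other 5. Nectin1 was also highest in IPA 2, at 23.5 CPM beside 19.1 to 20.01 CPM. Nectin2 was highest in Trp 3, at 4.81 CPM beside 2.77 to 3.28 CPM. The mean level of the mural cell list was highest in Trp 3, at 2.58 log2 CPM beside 2.12 to 2.28. In all 3 genes the high library stayed below every HFD library.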

How the results depend on the processing

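The count of 54 passed genes was 491 with DESeq2 (50 shared), 19 with a mean FPKM of at least 5, 9 with limma on log2(FPKM + 0.5) and 9 on log2(FPKM + 0.1), 83 with striatal and choroid plexus levels as covariates (27 shared), 0 at an adjusted p under 0.01, 133 under 0.1 and 16 with at least a 2-fold change. Chosen after seeing the data, leaving out HFD 3 and Trp 3 gave 760 and the blood list as covariate 185 (20 shared; 122 higher and 63 lower, against 23 and 31). That split was 47 and 36 with the tissue covariates. Leaving out 1 library gave 0 to 207. Other size factors (48), upper quartile scaling (49), no filter (69) and 1 mean per labelled group (69) stayed within 1.5 times. Trp against IPA gave 15 with DESeq2, 3 with no filter and 0 to 1 when 1 library was left out. The causes were not tested. Sampling depth limits scarce genes: 3 counts, the upper limit when none are seen, equal 0.058 to 0.075 CPM.

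Replicate numbers did not pair the libraries: deviations of same-numbered libraries correlated at -0.20 to 0.05, those of others at -0.14 to 0.26. A replicate block gave 22 passed genes (16 shared).

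Reversed signs occurred only in genes that did not pass. Ocln was 0.10 without HFD 3 and Trp 3, 0.30 with the blood covariate and -0.30 to 0.012 when 1 library was left out (0.012 without HFD 3). Tjp1 was -0.0091 with upper quartile scaling, -0.0020 with 1 mean per group, -0.00069 with the replicate block, -0.053 with tissue covariates and -0.057 to 0.093 when 1 library was left out. With the blood covariate Mbp was 0.0061 and Gfap 0.20. With tissue covariates Ttr was -0.36 and Il1b 0.57, and Il1b ran from -0.44 to 0.018 when 1 library was left out.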

Other observations

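Other gene groups held no passed gene in edgeR's test. Chaperone genes of heat shock and the unfolded protein response leaned upward: of 29 tested, 24 were above 0 and 11 were higher and 0 lower at an unadjusted p under 0.05 (median 0.16). Hspa5, the chaperone BiP, was at 0.49 ± 0.14 (adjusted p = 0.165) and Herpud1, of endoplasmic reticulum degradation, at 0.32 ± 0.09 (adjusted p = 0.145). Of 50 ribosomal protein genes, 48 were below 0 at a small median of -0.10, while 38 nuclear respiratory chain genes had a median of 0.01. Of 25 oligodendrocyte genes 20 were below 0 (median -0.23), with Sox10, the lineage factor, at -0.36 ± 0.10 (adjusted p = 0.154). That list was highest in HFD 3, at 7.33 log2 CPM against 6.53 to 6.81 in the other libraries. Without HFD 3 its median was 0.05. Of 36 synaptic genes 27 were below 0 (median -0.10), with Syn2, a synapsin, at -0.31 ± 0.07 (adjusted p = 0.123). Of 27 cholesterol and fatty acid synthesis genes 21 were below 0 (median -0.12). Astrocyte genes were split, 11 above and 14 below 0, and Sox9, an astrocyte transcription factor, was at -0.48 ± 0.12 (adjusted p = 0.123). Gfap overlapped between groups at 122 to 294 CPM in HFD and 118 to 164 CPM in supplemented libraries.

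All 21 choroid plexus markers were above 0 (median 0.86) and 0 passed, with 0 at an unadjusted p under 0.05; Ttr, the choroid plexus thyroid hormone carrier, ran from 25.7 to 1287 CPM within the supplemented libraries. All 22 striatal markers were above 0 as well (median 0.51), with 2 at an unadjusted p under 0.05 and 0 passed. Of 20 meningeal and matrix genes 19 were below 0 (median -0.50, and -0.09 without HFD 3).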
